A study of Homo sapiens with 12 samples.

Results

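The 10 genes by which granulosa cells are recognised were followed across RNA sequencing of cells labelled KGN and COV434, grown with or without the compound 77-39. The genes were FOXL2, NR5A1, WT1, GATA4, AMH, AMHR2, FSHR, INHA, INHBA and ESR2, taken by name, and they made up 10 of the 58735 genes of the expression table. Both names belong to established human cell lines, which the labels describe as granulosa cell tumor cells of wild-type genotype, and KGN comes from an adult-type tumor. The design held 12 libraries, 3 for each of 4 groups, namely KGN untreated, KGN with 77-39, COV434 untreated and COV434 with 77-39. The compound is a selective inhibitor of SIRT3, a mitochondrial deacetylase, and treatment lasted 72 h at a dose that the labels write as 10 with an ambiguous unit. The culture medium carried serum in every group, and each label stands for 1 cell line. Nothing in the labels states that the 3 libraries of a group came from separate cultures, so the p-values below measure only the spread between these libraries.

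Granulosa cells surround the oocyte and make estradiol, inhibin and anti-Müllerian hormone. FOXL2 is the forkhead factor that maintains their ovarian identity, and NR5A1, WT1 and GATA4 are transcription factors that act from the early gonad onwards on the promoters of hormone genes. AMH signals through its own receptor AMHR2, while INHA encodes the inhibin alpha subunit that pairs with the activin subunit encoded by INHBA. FSHR receives follicle-stimulating hormone and works through cyclic AMP, and ESR2 encodes the estrogen receptor beta of granulosa cells.

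Levels are given as FPKM, the fragments on a gene scaled to the length of the gene and to the fragments counted in the library, so that genes of different length can be set side by side. Each library held between 15547851 and 18280415 reads on genes, recovered as whole reads from FPKM and gene length, and mitochondrial genes took 7.30% to 13.5% of them, the highest share in COV434 library 1 with 77-39. The libraries stood apart by label in a way that goes against what is known of the lines. KGN is known to express FOXL2, whereas COV434 has been described as lacking FOXL2 and the chromatin remodelling ATPases SMARCA4 and SMARCA2. In the files the reverse was found. The 6 libraries labelled KGN held 2 FOXL2 reads together, and their SMARCA2 level was at most 0.00870 FPKM. The 6 libraries labelled COV434 had 11.5 to 14.0 FPKM of FOXL2 and 4.51 to 6.48 FPKM of SMARCA2. SMARCA4 was 2.25 to 2.60 FPKM under the KGN label and 6.51 to 12.6 FPKM under the COV434 label, so that no library of one label overlapped the other. CYP19A1, the aromatase that makes estrogen, was at most 0.161 FPKM in any library. All names below are therefore those of the labels, and every direction between lines rests on them.

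**Figure D1:**
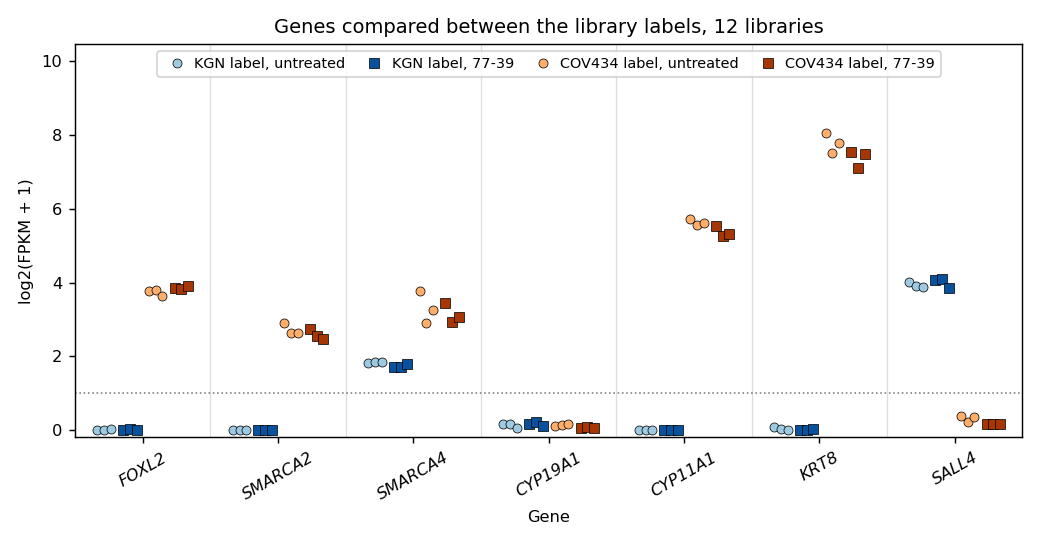
The vertical axis gives log2(FPKM + 1) of 7 genes in each of the 12 libraries, circles for untreated and squares for 77-39, blue for the KGN label and orange for the COV434 label, and the dotted line marks 1 FPKM. FOXL2 and SMARCA2 lie near 0 in all 6 libraries labelled KGN, and CYP11A1 and KRT8 are high only in the 6 labelled COV434.

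The promoters of AMH and INHA are shown because these were the identity genes measured above 0.5 FPKM in all 12 libraries. The windows run from 250 bases before to 50 bases after the RefSeq start on GRCh38.p14, plus strand, 5′ to 3′. Capitals mark the letters of GATA factor motifs, searched on both strands so that a reverse match reads as its complement. The motifs searched were AGATAA or else AGATAG, with the further forms TGATAA or else TGATAG.
AMH, chr19:2249073-2249372: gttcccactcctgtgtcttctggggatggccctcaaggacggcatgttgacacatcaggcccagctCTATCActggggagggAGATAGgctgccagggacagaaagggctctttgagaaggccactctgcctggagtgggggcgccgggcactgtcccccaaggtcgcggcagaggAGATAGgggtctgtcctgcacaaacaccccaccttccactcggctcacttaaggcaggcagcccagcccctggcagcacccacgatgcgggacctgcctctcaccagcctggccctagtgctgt
INHA, chr2:219572060-219572359: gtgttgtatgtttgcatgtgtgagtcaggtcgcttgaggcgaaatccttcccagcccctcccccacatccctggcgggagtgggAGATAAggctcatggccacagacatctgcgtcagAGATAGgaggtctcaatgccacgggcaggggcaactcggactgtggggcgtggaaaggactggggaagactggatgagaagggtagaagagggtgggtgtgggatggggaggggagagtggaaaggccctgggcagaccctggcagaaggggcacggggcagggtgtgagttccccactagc
The AMH window held 3 matches, beginning 184, 168 and 74 bases upstream of the start, and the INHA window held 2, at 166 and 132 bases. Of the 10 genes 9 were searched, in 16 windows since some have several starts, and the remaining GATA4 was not. GATA letters were in 6 of the 16 windows (37.5%), 1 for each of 6 genes, and in 25.0% of 35116 promoter windows of this length. The exact letters CAAGGTCA bound by NR5A1 and the cyclic AMP response element TGACGTCA were in none of the 16 windows, against 1.28% and 1.85% of all windows. Variant forms were not searched, such as caaggtcg in the AMH window, so an absent match does not show that such an element is absent. A match describes these letters only, and the INHA window starts from a RefSeq start that lies inside the gene span of the table, chr2:219569162-219575713.

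FOXL2 and WT1, the transcription factors of the set that were read, were each present under 1 label. FOXL2 (chr3:138944224-138947140, minus strand) was read at 12.8, 13.0 and 11.5 FPKM in the untreated libraries labelled COV434. With 77-39 these were 13.5, 13.2 and 14.0 FPKM. The libraries labelled KGN held 1 FOXL2 read without and 1 with the compound. The FOXL2 level of the untreated COV434 label was thus 2003 times that of the KGN label, with a 95% counting interval of 359 to 79167 that covers counting error only. In bulk RNA, fewer cells with a transcript and less of it in each cell cannot be told apart.

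WT1, the Wilms tumor zinc finger factor of the gonadal ridge (chr11:32387775-32435630, minus strand), went the other way. It was read at 56.4, 61.4 and 61.3 FPKM in the untreated libraries labelled KGN and at 46.9, 45.9 and 47.8 FPKM with 77-39. No WT1 read was found in any of the 6 libraries labelled COV434, where 3 reads would have been 0.0408 to 0.0487 FPKM. Against 3 reads over a group, WT1 was at least 4116-fold higher under the KGN label without the compound and at least 3164-fold higher with it. WT1 shares 113 of its 4113 exon bases with the antisense gene WT1-AS, and whether the counting used strand is not given in the sources used here. WT1-AS itself was 12.2 to 12.9 FPKM in untreated and 9.74 to 10.1 FPKM in treated libraries labelled KGN, with no read under the COV434 label.

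NR5A1 and GATA4, which drive steroidogenic and gonadal promoters, were not detectable above this depth under either label. NR5A1 (chr9:124481236-124507430, minus strand) had 1 read in all 12 libraries together, in KGN library 2 with 77-39. GATA4 reads were 0, 1 and 1 in the untreated and 1, 0 and 3 in the treated libraries labelled KGN. Under the COV434 label 1 GATA4 read was found in 6 libraries. The related genes of both families were present, again each under 1 label. NR5A2, the sister receptor of NR5A1, was 45.2, 48.1 and 47.9 FPKM in untreated and 46.2, 45.9 and 43.4 FPKM in treated libraries labelled KGN, and at most 0.0370 FPKM under the COV434 label. GATA6, the other GATA factor of granulosa cells, was 6.21, 4.95 and 6.48 FPKM in untreated and 7.09, 4.46 and 5.64 FPKM in treated libraries labelled COV434, and at most 0.0575 FPKM under the KGN label.

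**Figure D2:**
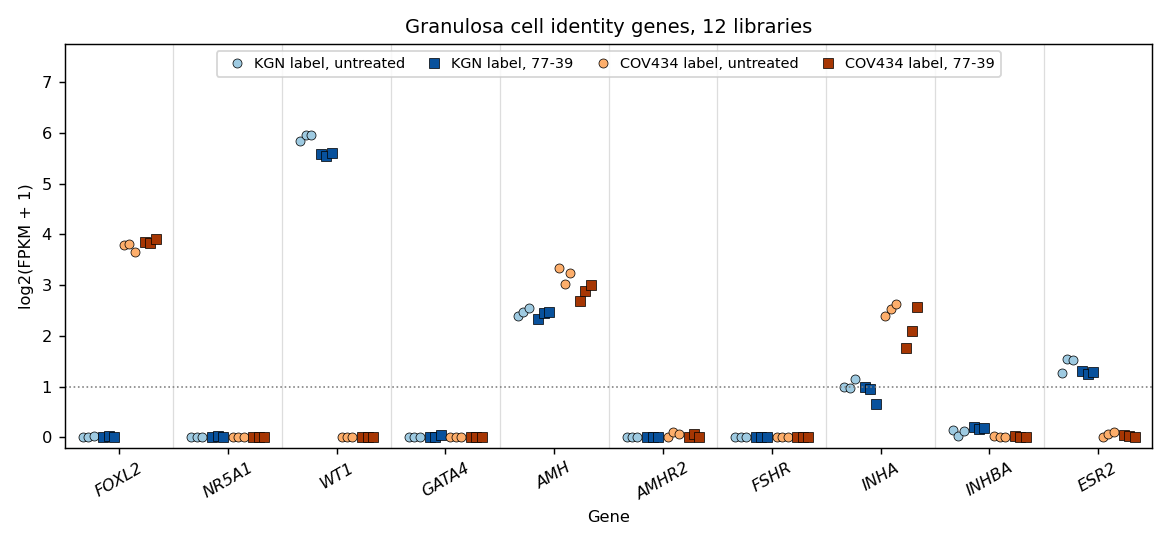
The vertical axis gives log2(FPKM + 1) of the 10 identity genes in each of the 12 libraries, with circles for untreated, squares for 77-39 and a dotted line at 1 FPKM. WT1 and ESR2 pass the line only under the KGN label, FOXL2 only under the COV434 label and AMH under both, while NR5A1, GATA4, AMHR2, FSHR and INHBA stay near 0 throughout. INHA is above the line in every library labelled COV434 and lies on either side of it under the KGN label.

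Among the hormones, AMH (chr19:2249309-2252073, plus strand) was made under both labels. Its level was 4.25, 4.57 and 4.83 FPKM in untreated libraries labelled KGN and 4.07, 4.48 and 4.53 FPKM with 77-39. Under the COV434 label it was 9.14, 7.14 and 8.43 FPKM without and 5.45, 6.36 and 7.03 FPKM with the compound. Every library labelled COV434 was above every library labelled KGN. The splicing factor gene SF3A2 ends 629 bases from AMH and was 9.25 to 16.9 FPKM over the 12 libraries, and any part of its reads in AMH was not tested.

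The inhibin alpha gene INHA was 4.27, 4.77 and 5.22 FPKM in untreated libraries labelled COV434, and 2.40, 3.30 and 4.94 FPKM with 77-39. Under the KGN label it was 0.985, 0.968 and 1.22 FPKM without and 1.01, 0.939 and 0.580 FPKM with the compound. The lowest COV434 library was above the highest KGN library. Of the 1753 exon bases of INHA 285 lie within the span of the gene OBSL1, none of them in its exons, and OBSL1 was 10.8 to 17.0 FPKM under the COV434 label and 3.11 to 3.64 FPKM under the KGN label, its part in the INHA reads not tested. INHBA, the activin subunit (chr7:41667168-41705834, minus strand), had 17, 2 and 16 reads in untreated and 23, 18 and 19 reads in treated libraries labelled KGN, at most 0.153 FPKM, and 0 to 2 reads in each library labelled COV434. The alternative activin subunit gene INHBB was 6.95 ± 0.919 FPKM in untreated and 7.73 ± 1.36 FPKM in treated libraries labelled COV434 (SD, n = 3), against at most 0.0886 FPKM under the KGN label. Libraries labelled COV434 therefore held both INHA and INHBB, and those labelled KGN held INHA at about the level of 1 FPKM with little of either subunit gene.

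The receptors of the set were largely unread. FSHR (chr2:48962157-49154537, minus strand) had 0 reads in all 12 libraries, where 3 reads in a library would have been 0.0481 to 0.0632 FPKM. AMHR2 (chr12:53423855-53431534, plus strand) had no read under the KGN label, 0, 5 and 3 reads in untreated and 0, 3 and 0 in treated libraries labelled COV434. The type I receptor BMPR1B, which can serve AMH beside AMHR2, was 43.2 ± 0.0448 FPKM (SD, n = 3) in untreated libraries labelled KGN and 0.255 ± 0.0540 FPKM in those labelled COV434. ESR2 (chr14:64084232-64338112, minus strand) was the receptor that was read, at 1.42, 1.92 and 1.87 FPKM in untreated and 1.49, 1.37 and 1.45 FPKM in treated libraries labelled KGN. In libraries labelled COV434 it was 0.0120 to 0.0768 FPKM, from 21 reads without and 9 with 77-39. ESR2 was 38.8 times higher under the KGN label without the compound, with a 95% counting interval of 25.2 to 63.0, and 73.4 times with it, with an interval of 38.5 to 161. Without the untreated COV434 library 3, which held 12 of the 21 reads, the first ratio was 60.4, and without library 1 or 2 it was 28.8 or 38.5, an alternative chosen after seeing the data. Of its 9337 exon bases 821 lie within the span of the neighbouring gene SYNE2, none of them in SYNE2 exons, and SYNE2 was 72.1 to 100 FPKM under the KGN label and 2.25 to 5.22 FPKM under the COV434 label. The part of unspliced SYNE2 RNA in the ESR2 reads was not tested. GPER1, the membrane estrogen receptor, was 14.4 ± 0.953 FPKM in untreated libraries labelled COV434 and 1.13 ± 0.254 FPKM in those labelled KGN.

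**Figure D3:**
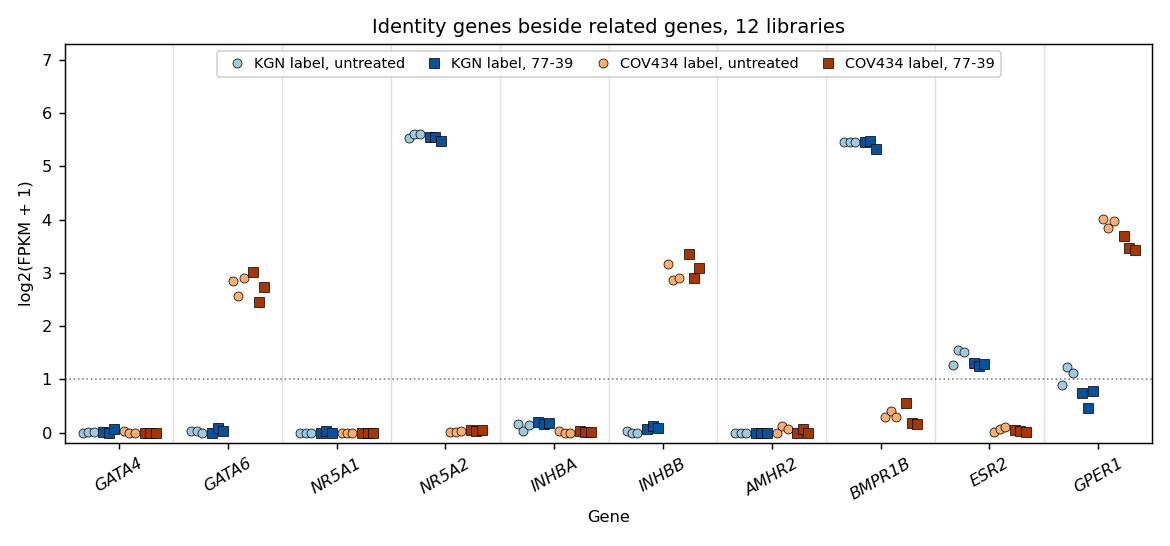
The vertical axis gives log2(FPKM + 1) of 5 identity genes, each followed by a gene of related structure or role, in each of the 12 libraries, with circles for untreated, squares for 77-39 and a dotted line at 1 FPKM. NR5A2 and BMPR1B reach above 5 on this scale under the KGN label, and GATA6, INHBB and GPER1 are high under the COV434 label, where GATA4, NR5A1, INHBA and AMHR2 are near 0.

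By mean FPKM the order in untreated libraries labelled KGN was WT1, AMH, ESR2, INHA and INHBA, and no library of one gene overlapped the next. In untreated libraries labelled COV434 the order was FOXL2, AMH and INHA, again without overlap, followed by AMHR2 and ESR2, whose values overlapped. With 77-39 the order of WT1, AMH, ESR2, INHA and INHBA under the KGN label and of FOXL2, AMH and INHA under the COV434 label was the same, while ESR2 and AMHR2, both near 0, changed places under the COV434 label. A mean of at least 1 FPKM in some group was reached by 5 of the 10 genes, and the other 5 were under it in every group.

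The untreated libraries of the labels were compared by limma, a linear model fitted over all genes on log2(FPKM + 1). The test covered genes whose mean over the libraries fitted reached 1 FPKM, and a gene was called at a Benjamini-Hochberg adjusted p under 0.05. Of all genes tested 69% were called, 32.6% as higher under the KGN label and 36.4% as lower. Of the identity genes 4 were tested, and all 4 were called, 1 higher and 3 lower, beside that background. FOXL2 and WT1 passed the filter only through the label where they were high, so their calls were largely fixed in advance. AMH was lower under the KGN label by 0.73 on the log2 scale (limma, log2 fold change -0.73, SE 0.11, adjusted p = 0.000823), with means of 4.55 ± 0.290 and 8.24 ± 1.02 FPKM (SD, n = 3). INHA was lower (limma, log2 fold change -1.48, SE 0.10, adjusted p = 1.6e-05), with means of 1.06 ± 0.139 and 4.75 ± 0.474 FPKM. FOXL2 was lower (limma, adjusted p = 9.08e-08) and WT1 higher (limma, adjusted p = 2.31e-08), and since one label was at or near 0 reads for each, the counting ratios above describe their size rather than the fitted fold. ESR2 was under the filter in this comparison. With the filter set at 0.1 FPKM it was called as higher under the KGN label (limma, log2 fold change 1.38, adjusted p = 5.69e-05).

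With 77-39 in libraries labelled KGN, WT1 was the identity gene that fell. Its mean went from 59.7 ± 2.85 to 46.9 ± 0.976 FPKM (SD, n = 3), and it fell by 21.5%, with every treated library below every untreated one. On the log2 scale the change was -0.34 with an SE of 0.05 (limma, adjusted p = 0.00309). It was called in all 15 alternative settings, at a limma or voom adjusted p of 0.000141 to 0.0189. AMH had means of 4.55 ± 0.290 and 4.36 ± 0.252 FPKM with overlapping libraries (limma, log2 fold change -0.05, SE 0.06, adjusted p = 0.563). ESR2 had means of 1.74 ± 0.280 and 1.44 ± 0.0618 FPKM, also overlapping (limma, log2 fold change -0.16, SE 0.10, adjusted p = 0.242). INHA was under the filter, at 1.06 ± 0.139 and 0.842 ± 0.229 FPKM. In this comparison 34% of the 12671 genes tested were called, 17.6% up and 16.4% down, so that 1 of 3 identity genes called was a share near that over all genes and says nothing particular of the set.

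**Figure D4:**
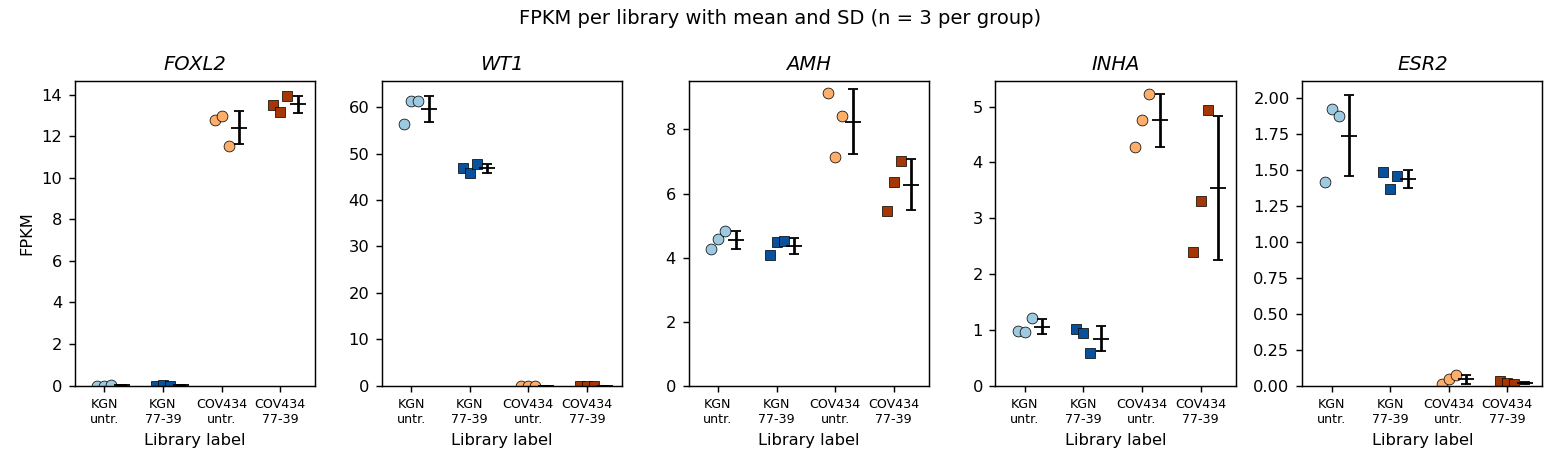
The vertical axes give FPKM of FOXL2, WT1, AMH, INHA and ESR2, with 1 point for each library, circles for untreated and squares for 77-39, and beside them the mean and SD of the 3 libraries. The treated WT1 points under the KGN label, at 45.9 to 47.8, lie below the untreated ones at 56.4 to 61.4, whereas the treated INHA points under the COV434 label spread from 2.40 to 4.94.

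With 77-39 in libraries labelled COV434, none of the 3 identity genes tested was called by limma, and 0 were at an unadjusted p under 0.05. The voom test on recovered reads also called 0. AMH means were 8.24 ± 1.02 and 6.28 ± 0.792 FPKM (SD, n = 3), and the highest treated library, at 7.03, was below the lowest untreated one, at 7.14 (limma, log2 fold change -0.34, SE 0.16, adjusted p = 0.646). INHA means were 4.75 ± 0.474 and 3.55 ± 1.29 FPKM, with overlapping libraries (limma, log2 fold change -0.37, SE 0.21, adjusted p = 0.766). The lowest INHA and AMH values under this label were those of treated library 1, which also had the highest mitochondrial share of 13.5% against 7.71% and 8.74% in the other treated libraries, and the part of that library's quality was not tested. Without it the INHA change was -0.18, and without treated library 3 it was -0.59. FOXL2 means were 12.4 ± 0.786 and 13.5 ± 0.403 FPKM (limma, log2 fold change 0.12, SE 0.13, adjusted p = 0.927). Of the 12060 genes tested 0.0415% were called, which is 5 genes, and a block on library number called 87. At an unadjusted p under 0.05 were 424 genes up and 541 down.

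The responses under the labels were then compared with each other in a fit of all 12 libraries, in which 3.6% of 13127 genes were called. None of the 4 identity genes tested was called by limma or voom. Over all genes 1259 positive and 1108 negative differences were at an unadjusted p under 0.05, and among the 4 identity genes 1 was. This was WT1, with a log2 difference of -0.34 (limma, SE 0.10, adjusted p = 0.0819), and it amounts to the response of the KGN label since the COV434 label had no WT1 read. The log2 differences were 0.29 for AMH, 0.21 for INHA and -0.12 for FOXL2 (limma, SE 0.15, 0.25 and 0.10, adjusted p = 0.346, 0.737 and 0.620). A difference in the response of AMH and INHA was not detected. The FOXL2 value amounts to the COV434 response with its sign turned. The KGN label held 1 FOXL2 read without and 1 with the compound, so its response there could not be measured.

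**Figure D5:**
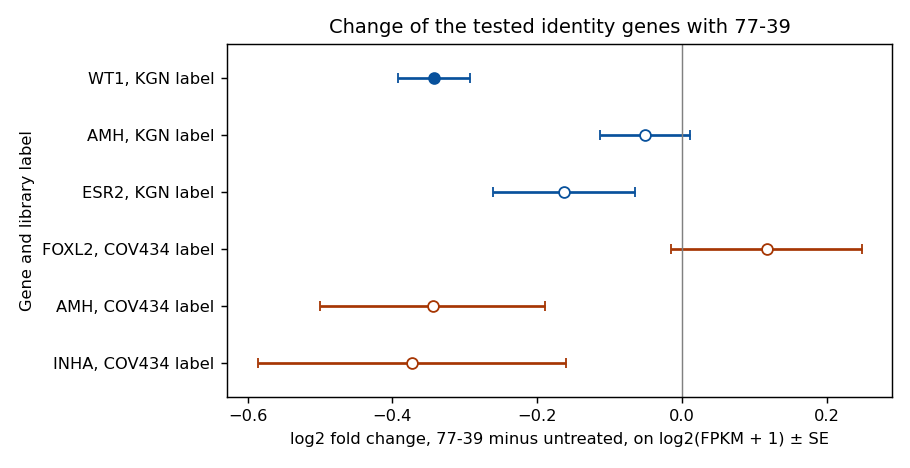
The horizontal axis gives the log2 fold change with 77-39, treated minus untreated on log2(FPKM + 1), with bars of 1 SE, for the identity genes tested under each label, filled where called. WT1 at -0.34 under the KGN label is the filled point, and the AMH and INHA changes under the COV434 label are of similar size with wider bars.

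The cofactors and partner factors of the gonad formed a list of 24 genes. Under the KGN label 77-39 lowered 3 of 11 tested and raised none, beside 16.4% of all genes lowered and 17.6% raised, with a median log2 change of -0.06 against 0.01 over all genes. The coactivator CITED2 went from 13.0 ± 0.626 to 9.60 ± 1.01 FPKM (limma, log2 fold change -0.40, SE 0.08, adjusted p = 0.00848), and the Polycomb gene CBX2 from 9.19 ± 0.455 to 6.95 ± 0.241 FPKM (limma, log2 fold change -0.36, SE 0.05, adjusted p = 0.00298). NR2F2 was called too, at -0.19, a call that was lost in 4 of 6 fits with 1 library left out. Under the COV434 label NR4A1, an immediate early nuclear receptor, was the 1 of 15 called, with 14.8, 12.4 and 13.1 FPKM without and 5.51, 4.18 and 4.05 FPKM with the compound (limma, log2 fold change -1.38, SE 0.16, adjusted p = 0.0468). That call was lost in 5 of 6 fits with 1 library left out, with an adjusted p of up to 0.219 without untreated library 3. Over all 15 alternative fits it held in 6. These included voom (adjusted p = 0.00629), the block on library number (limma, adjusted p = 0.0257) and the fit of all 12 libraries (limma, adjusted p = 0.000172). CITED2 was 33.2 ± 2.45 and 21.5 ± 2.44 FPKM under the COV434 label, a log2 change of -0.60. It was not called in the fit of the label alone (limma, adjusted p = 0.249), with the block (limma, adjusted p = 0.0702) or by voom (adjusted p = 0.279). In the fit of all 12 libraries it was called (limma, adjusted p = 0.00956), beside 257 of 13127 genes called down.

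Between the untreated labels 5 of 16 partner genes tested were higher under the KGN label and 8 lower, beside 32.6% and 36.4% of all genes. Beside NR5A2 and GATA6, the homeobox gene IRX3 was 6.82 to 6.90 FPKM under the COV434 label and had 0 reads under the KGN label. The coactivator CITED4 was 134 ± 26.6 FPKM under the COV434 label and 1.72 ± 0.272 FPKM under the KGN label.

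The ligands, antagonists, receptors and SMADs of the inhibin, activin and AMH system formed a list of 25 genes. Under the KGN label 5 of 19 tested rose with 77-39 and 1 fell, where 34% of all genes were called, 17.6% up and 16.4% down, with a median log2 change of 0.12 against 0.01 over all genes. The AMH type I receptors BMPR1A and ACVR1 were among those called up. BMPR1A was 7.06, 7.26 and 7.63 FPKM without and 9.49, 9.77 and 8.96 FPKM with the compound (limma, log2 fold change 0.32, SE 0.05, adjusted p = 0.00413). ACVR1 went from 3.82 ± 0.195 to 4.87 ± 0.339 FPKM (limma, adjusted p = 0.0143), a call lost in 2 of 6 fits with 1 library left out. INHBE, an activin subunit, went from 3.33 ± 0.325 to 4.48 ± 0.252 FPKM (limma, log2 fold change 0.34, SE 0.07, adjusted p = 0.0124). SMAD2, the activin signal transducer, rose by 0.19 and the activin-binding protein gene FSTL3 fell by 0.26 on the log2 scale, calls lost in 5 and 3 of 6 such fits. Under the COV434 label 0 of 16 were called by limma, and 4 were at an unadjusted p under 0.05, beside 424 up and 541 down of 12060 genes. In the fit of all 12 libraries 3 of those 4 were called down there, FSTL3, FURIN and SMAD7 (limma, log2 fold change -0.64, -0.58 and -0.44, adjusted p = 0.00602, 0.0135 and 0.0455). That fit, which shares 1 estimate of the spread between labels, called 257 of 13127 genes down. With the block on library number they were not called (limma, adjusted p = 0.0907, 0.0861 and 0.190), nor by voom (adjusted p = 0.243, 0.282 and 0.456). Between the untreated labels 5 of 18 were higher and 9 lower under the KGN label, beside the same 32.6% and 36.4% of all genes. FSTL3 was 319 ± 18.4 FPKM under the COV434 label and 8.26 ± 0.294 FPKM under the KGN label, and the inhibitory SMAD7 was 8.70 ± 1.03 and 1.10 ± 0.243 FPKM.

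The genes of FSH receptor signalling through cyclic AMP, 26 in the list, were mostly read although FSHR itself was not. Under the KGN label 4 of 24 tested rose and 4 fell, close to the 17.6% and 16.4% of all genes. PRKAR1B, a regulatory subunit of protein kinase A, was 12.3, 12.9 and 13.1 FPKM without and 7.09, 6.02 and 7.76 FPKM with 77-39 (limma, log2 fold change -0.79, SE 0.08, adjusted p = 0.000978). The phosphodiesterase PDE4A went from 4.07 ± 0.146 to 3.00 ± 0.115 FPKM (limma, log2 fold change -0.34, SE 0.05, adjusted p = 0.00415), and the catalytic subunit gene PRKACB from 5.26 ± 0.171 to 6.58 ± 0.472 FPKM (limma, log2 fold change 0.28, SE 0.06, adjusted p = 0.0131). The adenylate cyclase ADCY5 and the adaptor APPL1 were called up by 0.38 and 0.24, calls lost in 5 and 2 of 6 fits with 1 library left out. None of 21 was called by limma under the COV434 label, with 1 at an unadjusted p under 0.05, beside 424 up and 541 down of 12060 genes. Between the untreated labels 6 of 22 were higher and 10 lower under the KGN label, against 32.6% and 36.4% of all genes, the coactivator CRTC3 being 5.95 ± 0.456 FPKM there and 33.1 ± 11.1 FPKM under the COV434 label.

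Products of granulosa cells formed a list of 20 genes, most of which were low. Under the KGN label 6 were tested and 1 rose, beside 17.6% of all genes. This was PTGS2, the cyclooxygenase of ovulation, from 2.96, 3.28 and 3.20 FPKM to 4.73, 4.27 and 4.57 FPKM (limma, log2 fold change 0.41, SE 0.06, adjusted p = 0.00292). Of 9 tested under the COV434 label 0 were called by limma, with 2 at an unadjusted p under 0.05, beside 424 up and 541 down of 12060 genes. PTGS2 was 12.7, 14.0 and 15.0 FPKM there without and 6.46, 5.48 and 6.20 FPKM with the compound (limma, log2 fold change -1.08, SE 0.14, adjusted p = 0.066). It was called with the library number as a block (limma, adjusted p = 0.0369), by voom (adjusted p = 0.0237) and in the fit of all 12 libraries (limma, adjusted p = 0.000172). Between the untreated labels all 10 tested were called, 3 higher and 7 lower under the KGN label, where 69% of all genes were called. CYP11A1, which cleaves cholesterol in the opening step of steroid synthesis, was 52.2, 46.5 and 48.1 FPKM under the COV434 label and had no read under the KGN label. The gap junction gene GJA1 was 19.2 ± 0.209 FPKM under the KGN label and 0.0694 ± 0.0623 FPKM under the COV434 label. BMP2 was 0.147 ± 0.0531 and 70.8 ± 15.3 FPKM in that order.

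In the estrogen receptor list of 16 genes, 1 of 7 tested fell with 77-39 under the KGN label and none rose, beside 16.4% and 17.6% of all genes. This was the orphan receptor ESRRA, at 12.8 ± 0.748 and 10.9 ± 0.743 FPKM (limma, log2 fold change -0.21, SE 0.06, adjusted p = 0.0393), and the call was lost in 5 of 6 fits with 1 library left out. Of 9 tested under the COV434 label, limma called 0, with 1 at an unadjusted p under 0.05, beside 424 up and 541 down of 12060 genes. Between the untreated labels 3 of 8 were higher and 3 lower under the KGN label, beside 32.6% and 36.4% of all genes.

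Of the 17 list genes named for 77-39 under the KGN label, stromal genes included, 16 were also tested in the fit of all 12 libraries, where 4 were still called, CITED2, PRKAR1B, PTGS2 and COL3A1, and 12 were not.

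Markers of other cell types also separated the labels. Of 8 epithelial markers 4 were tested between the untreated labels, and all 4, keratins, were lower under the KGN label, beside 36.4% of all genes. KRT7 was 413, 400 and 406 FPKM under the COV434 label and had no read under the KGN label, and the list summed to 791 to 934 FPKM against 1.06 to 1.16 FPKM. EPCAM, the defining surface marker, had 2 reads in the untreated libraries labelled COV434. PAX8, also on the list, was under the filter in this comparison. It went the other way, with untreated means of 1.05 FPKM under the KGN label and 0.568 FPKM under the COV434 label. Of 6 germ and pluripotent cell markers 2 were tested, SALL4 being 14.3 ± 0.776 FPKM under the KGN label and 0.245 ± 0.0731 FPKM under the COV434 label and POU5F1 0.171 ± 0.129 and 1.86 ± 0.436 FPKM. Of 8 stromal markers 6 were tested, 2 higher and 4 lower under the KGN label, beside 32.6% and 36.4% of all genes. Their list summed to 88.1 to 90.8 FPKM under the KGN label and 95.3 to 212 FPKM under the COV434 label. The 8 Sertoli cell markers summed to 0.555 to 0.755 FPKM under the KGN label and 2.13 to 3.48 FPKM under the COV434 label, with SOX9, their defining factor, at most 0.0299 FPKM. Most of the COV434 sum was TSPAN1, at an untreated mean of 2.84 FPKM. The 6 theca and Leydig cell markers summed to 0.523 to 1.04 and 46.5 to 52.3 FPKM, the latter nearly all CYP11A1. The 8 endothelial and immune markers summed to 0.346 to 0.379 and 1.65 to 2.42 FPKM. With 77-39, 3 stromal genes of 4 tested were called under the KGN label, where 34% of all genes were called. LUM rose by 0.43 and COL3A1 and NR2F2 fell, NR2F2 being counted among the partner genes above as well. No gene of these lists was called under the COV434 label in the limma fit of that label alone, where 0.0415% of all genes were called. There the fit of all 12 libraries called COL3A1 and COL1A1 down (limma, log2 fold change -0.53 and -0.59, adjusted p = 0.00571 and 0.0466), beside 257 of 13127 genes. The block called neither (limma, adjusted p = 0.155 and 0.133), nor did voom (adjusted p = 0.265 and 0.327). Voom called the endothelial CDH5 down (adjusted p = 0.0318), beside 13 of 12060 genes. The part of these markers in the identity gene levels was not tested.

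The genes most like FOXL2, WT1, AMH and INHA were taken by the smallest root mean square difference between centred log2(FPKM + 1) profiles over the 12 libraries, among 13126 genes. The other identity genes, ESR2 among them, had a mean under 1 FPKM over the 12 libraries, and their profiles were not compared. Since 2 labels of cells set most of this variation, likeness describes these libraries only. FOXL2 was nearest to VSIR, MTARC1 and BAMBI, at differences of 0.0896, 0.0988 and 0.101. WT1 was nearest to PDZRN4, ARHGEF26 and GATM, at 0.0713, 0.0745 and 0.0916. The genes nearest to AMH were CTPS1, NAXD and MKNK1, at 0.0909, 0.101 and 0.103. INHA had less close neighbours, SLC25A5, CDKN1B and ZNF165, at 0.143, 0.157 and 0.161.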

How the data were processed

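The authors sequenced RNA of 12 libraries, made with an Illumina TruSeq kit, and deposited FPKM per gene with gene lengths and coordinates. The submitters' processing notes name HISAT2 2.0.5 and the mouse builds mm10 and mm8, whereas all 58735 genes of the human table carried the coordinates of GENCODE 29 (GRCh38), which were used here. The counter and its strand setting are not given in the sources used here. FPKM times length gave whole reads within 0.05 for 100% of values, and counting intervals (95%) and floors of 3 reads come from these and cover counting error only. The authors' divisor was 1.07 to 1.10 times the reads on genes under the KGN label and 0.911 to 0.978 times under the COV434 label.

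Tests were limma 3.58.1 in R 4.3.3 (lmFit, eBayes with a trend) on log2(FPKM + 1), two-sided, for genes whose mean over the libraries fitted reached 1 FPKM, with Benjamini-Hochberg adjustment over all genes tested. A fold change on this scale understates that of low genes. Each label was fitted alone for 77-39, and the untreated groups for the labels. Named were the 10 genes, up to 5 genes of each list with the largest change among those called, the line check genes and the 3 nearest profiles. The members and lists were chosen with earlier results of these data known. The code was tested on simulated data.

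Same-numbered libraries deviated together under the COV434 label (r across genes 0.400, 0.474 and 0.166) and not under the KGN label (-0.016, -0.018 and -0.019), and a block on the number was an alternative fit. Differently numbered pairs under the COV434 label had r of -0.469 to 0.154, so the same-numbered pair at 0.166 was barely above them. Other alternatives were pseudocounts, filters, scalings, voom on recovered reads with library totals, a fit of all libraries and leaving out each library. A scaling without mitochondrial genes was added after seeing the data. The table's symbol for MTARC1 stands as a date and was resolved by its gene ID.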

Additional observations from a re-analysis of the deposited data

Results flagged for a closer look

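For 3 genes of the pathway lists the response to 77-39 differed between the labels by a direct test of the difference, in the fit of all 12 libraries, where 3.6% of all genes tested were called. NR4A1 had a log2 difference of 1.39, KGN minus COV434 label (limma, adjusted p = 0.0013), with means of 0.389 and 0.402 FPKM under the KGN label without and with the compound and 13.5 and 4.58 FPKM under the COV434 label. Under the KGN label it was below the filter of 1 FPKM and not tested alone. The difference thus amounts to little more than the COV434 change of -1.38. PTGS2 had a log2 difference of 1.49 (limma, adjusted p = 0.00035), its mean going from 3.15 to 4.52 FPKM under the KGN label and from 13.9 to 6.05 FPKM under the COV434 label, where it missed the threshold alone (limma, adjusted p = 0.066). PRKAR1B had a log2 difference of -0.74 (limma, adjusted p = 0.0154), with means of 12.7 and 6.96 FPKM under the KGN label and 11.5 and 11.1 FPKM under the COV434 label. The calls on NR4A1 and PTGS2 held in all 12 fits with 1 library left out, and that on PRKAR1B in 9 of 12, with an adjusted p of up to 0.0556 without untreated KGN library 3. No cause was tested.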

How the results depend on the processing

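The counts of identity genes called were the same in each alternative run, 1 with 77-39 under the KGN label, 0 under the COV434 label, 0 for the difference of responses and 4 between the untreated labels. The exception is ESR2 in the last comparison. It passes with a lower filter, the scaling without mitochondrial genes or another library set, and is then called. Leaving out single libraries moved the WT1 change under the KGN label between -0.38 and -0.32, and the INHA change under the COV434 label between -0.59 and -0.18. With the replicate block WT1 kept its call (log2 fold change -0.34, limma, adjusted p = 0.0169), AMH and INHA under the COV434 label had adjusted p of 0.355 and 0.354, and the block changed no call on an identity gene. The block ended the list calls under the KGN label on NR2F2, FSTL3, SMAD2, SMAD5, ADCY5, AKT1 and ESRRA (limma, adjusted p = 0.0746, 0.0565, 0.103, 0.0958, 0.0689, 0.0693 and 0.0796). Over all genes the number called under the COV434 label was 5, against 25 by voom, 480 in the fit of all 12 libraries and 87 with the block, and under the KGN label it was 4307, against 1015 in the fit of all 12 libraries. Leaving out 1 library gave 2751 to 4128 genes called under the KGN label, the fewest without treated library 2, and 1 to 7 under the COV434 label, with 1 or 2 in 5 of the 6 fits. For the difference of responses, with 472 called, it gave 126 to 975. The fewest were found without KGN treated library 1 and the most without COV434 treated library 1, and voom called 264. The fit of all 12 libraries shares 1 estimate of the spread between labels. Scaling by recovered reads moved the median log2 difference of all genes between untreated labels from -0.02 to 0.16 and AMH from -0.73 to -0.56. For the list genes named in each comparison, all of them called in the main fit, 843 alternative values kept the call, 64 lost it and none changed direction. Most of these genes were named for the difference between untreated labels. List genes that gained a call, and called ones that were not named, are outside this count. Genes at or under 3 reads in a group are limited by depth.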
